A study of Mus musculus with 3 samples.

Results

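Apoe and 8 further genes that move cholesterol and other lipids between cells were followed across primary cultures of mouse ocular pigment epithelium: the apolipoprotein genes Apoe, Apod and Clu, the plasma lipid transfer and lipase genes Pltp and Lpl, the efflux transporter genes Abca1 and Abcg1, and the receptor genes Lrp1 and Vldlr. The 9 genes were taken from a fixed list of names, which was chosen with earlier results of these data known. Every probe set annotated to 1 of the 9 genes was used, which gave 24 of the 45101 probe sets and 9 of the 18193 named genes. Pigment epithelium had been cultured from 3 sites, iris (IPE), ciliary body (CBPE) and retina (RPE), from C57BL/6 mice aged 6 to 8 weeks with no genetic change stated. The medium was RPMI 1640 for IPE and CBPE, with 10% serum, but DMEM for RPE, with 20% serum, and all 3 were moved to medium without serum overnight before RNA was taken. Per the labels, over 99% of IPE cells and over 95% of CBPE and RPE cells were cytokeratin-positive, and CBPE and RPE had been cultured for 14 days, while no culture time was given for IPE. Each culture was read on 1 array, so each value stands alone, with no replicates and no tests, and medium and tissue cannot be told apart wherever RPE is compared. Where 3 signals follow one another without further words, they stand in the order IPE, CBPE, RPE.

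Cells export cholesterol through the ATP-binding cassette transporters ABCA1 and ABCG1. ABCA1 passes it to lipid-poor apolipoproteins such as apolipoprotein E, and ABCG1 passes it to mature lipoprotein particles. Lipoprotein particles are taken up again through receptors of the low density lipoprotein (LDL) receptor family. The liver X receptors (LXR), nuclear receptors that sense oxidised sterols, are known to switch on Abca1, Abcg1, Apoe, Lpl and Pltp together. In the eye, the retinal pigment epithelium takes in lipid with shed photoreceptor tips and returns lipid to the retina and the choroid, and apolipoprotein E is a known component of the deposits that form under it with age.

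Promoter windows were looked at for the genes that differed most between the cultures, since Abca1 and Apoe were both brightest in IPE. The windows are RefSeq sequence of build GRCm38.p6, running from 250 bases before to 50 bases after an annotated start and written 5′ to 3′ along the gene. The table held 9 windows for 6 of the 9 genes, namely 3 for Apoe, 2 for Vldlr and 1 each for Apod, Pltp, Abca1 and Lrp1. Capitals mark a TATA sequence (TATAAA), a GC box (GGGCGG), an E-box (CACGTG), and an LXR-type direct repeat, searched on both strands as 2 copies of AGGTCA spaced by 4 bases with at most 3 mismatches over the 12 fixed letters, a limit chosen after these windows had been seen. The windows of Abca1 (chr4:53159846-53160145, minus strand) and of the first listed Apoe start (chr7:19699139-19699438, minus strand) read:
Abca1: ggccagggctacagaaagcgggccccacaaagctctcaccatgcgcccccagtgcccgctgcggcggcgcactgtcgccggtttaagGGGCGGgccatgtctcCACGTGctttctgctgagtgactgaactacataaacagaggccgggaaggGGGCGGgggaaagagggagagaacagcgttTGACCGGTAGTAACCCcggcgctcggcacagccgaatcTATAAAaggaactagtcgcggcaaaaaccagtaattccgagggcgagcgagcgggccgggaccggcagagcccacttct
Apoe: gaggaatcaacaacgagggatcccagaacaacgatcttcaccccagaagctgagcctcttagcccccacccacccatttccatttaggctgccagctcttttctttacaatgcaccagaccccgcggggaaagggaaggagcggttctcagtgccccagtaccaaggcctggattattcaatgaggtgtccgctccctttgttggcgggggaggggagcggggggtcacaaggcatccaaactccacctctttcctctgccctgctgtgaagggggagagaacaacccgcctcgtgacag
The Abca1 window held GC boxes beginning 163 and 97 bases before the start, an E-box beginning 147 bases before it, a direct repeat on the opposite strand with 3 mismatches beginning 67 bases before it and a TATA sequence beginning 29 bases before it. The Apoe window printed here held none of these, while that of the second Apoe start held TATA sequences on the opposite strand, beginning 100 bases before the start, and on the gene's strand, beginning 96 bases before it. The third Apoe window held none, and the nearest direct repeat in any of the 3 Apoe windows had 4 mismatches. Of the 8 other windows, none held an E-box or a direct repeat within the limit. Among all 32851 windows of the same length, 7.15% held an E-box, 21.9% a direct repeat within the limit, 35.7% a GC box and 13.6% a TATA sequence, so a match is a description and not evidence of binding.

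The arrays differed in ways that touch these values. The 50th percentile of the non-control probe sets, used as each array's floor, was 14.5, 17.3 and 16.8, and transcripts of bacteria absent from the samples reached 20.2 in CBPE. The 3′ to 5′ signal ratio of the Actb controls, a guide to how complete the labelled RNA was, was 1.503 in IPE against 2.26 in CBPE and 2.25 in RPE. Hybridisation controls added in fixed amounts were 2.58-fold brighter in CBPE and 1.57-fold brighter in RPE than in IPE. The error at hand was how far probe sets of 1 gene disagreed, as a pooled SD of the log2 difference, which was 0.49 for CBPE minus IPE, 0.45 for RPE minus IPE and 0.29 for RPE minus CBPE. That SD holds no spread between cultures, animals or hybridisations. Of the 16 pigment epithelium markers listed, Cdh1 and Rpe65, a defining gene of retinal pigment epithelium, were under the floor on all 3 arrays, RPE included.

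Each gene was represented by its brightest probe set on average over the 3 arrays, on which basis 3 of the 9 genes were at least 2-fold brighter in IPE than in both other cultures, namely Apoe, Abca1 and Vldlr. No gene of the group was at least 2-fold brighter in CBPE than in IPE, where 11.8% of all 12831 genes tested were, against 12.5% of all genes for the opposite direction. In RPE only Apod was at least 2-fold above IPE, against 9.87% of 12446 genes, and the same 3 genes were at least 2-fold below IPE, against 10.5%. Between RPE and CBPE, Apoe and Apod were at least 2-fold brighter in RPE, where 3.75% of 12860 genes were, and Pltp in CBPE, where 4.26% were. The median log2 difference of the 9 genes was -0.32 for CBPE minus IPE, -0.56 for RPE minus IPE and -0.14 for RPE minus CBPE, beside medians over all genes of 0.04, 0.02 and -0.0020. With 9 genes these shares rest on 1 to 3 genes each. Scaling the arrays to equal medians moved the median of all genes to -0.22 for CBPE minus IPE and -0.20 for RPE minus IPE, and the share of 2-fold calls that were higher in the culture named first from 48.5% to 28.5% and from 48.5% to 28.9%. The same IPE array serves in both comparisons with IPE.

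**Figure D1:**
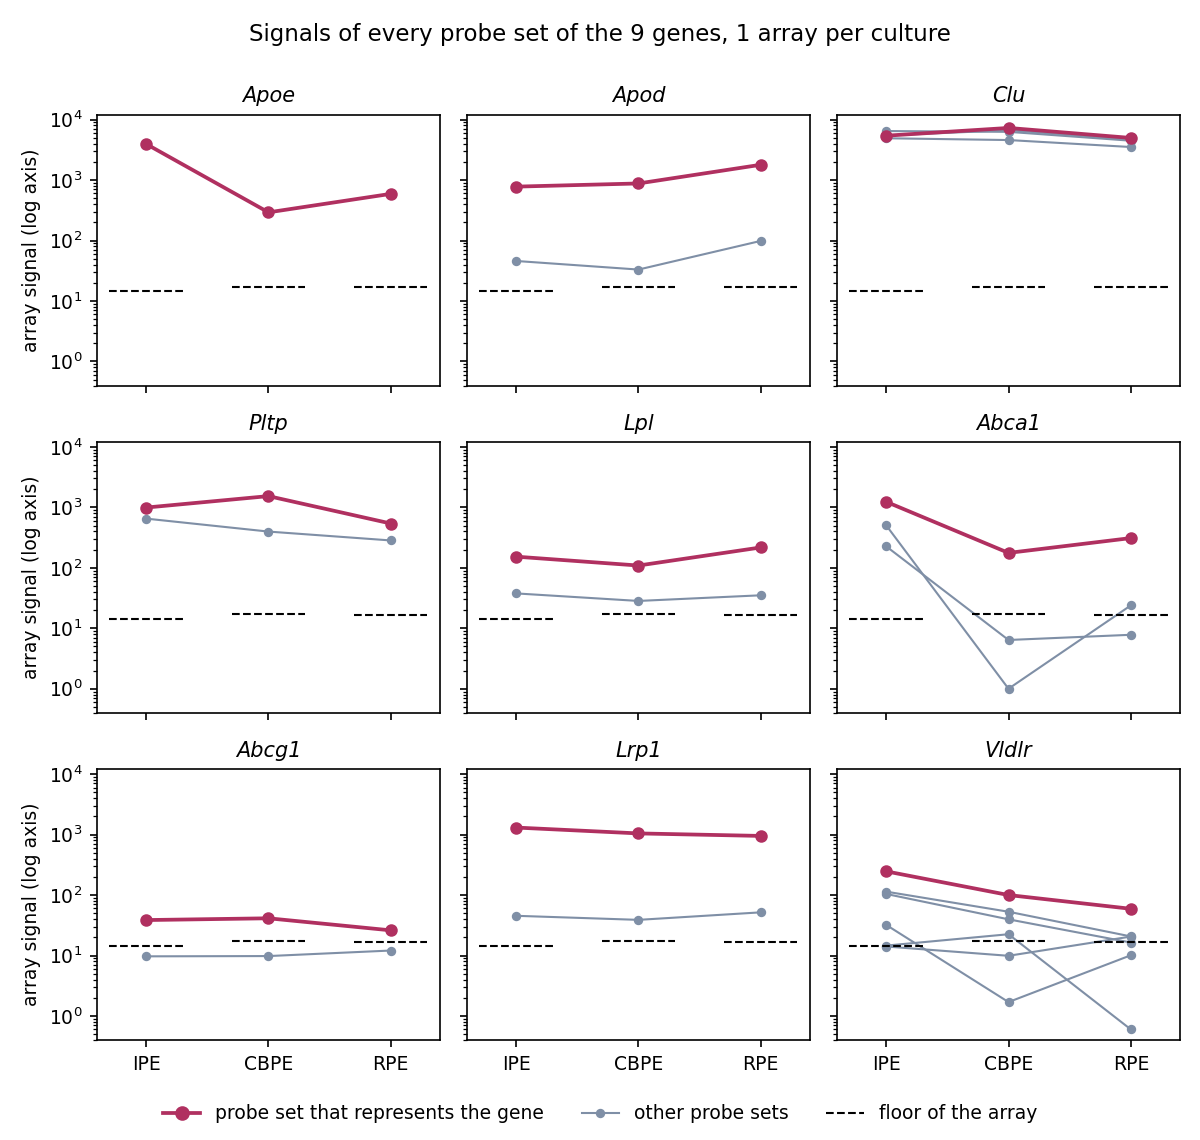
Array signal on a log axis for every probe set of the 9 genes in IPE, CBPE and RPE, 1 line per probe set and 1 array per culture, with the probe set that represents the gene in red and the floor of each array as a dashed line. Apoe (3950, 292.4 and 591.3) and the 3 probe sets of Abca1 drop from IPE to both other cultures, while the 4 probe sets of Clu stay between 3519 and 7277.

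Apoe encodes apolipoprotein E, a secreted ligand of the LDL receptor family. Its only probe set read 3950 in IPE but 292.4 in CBPE and 591.3 in RPE, so IPE was highest and CBPE lowest. IPE was 13.5-fold above CBPE and 6.68-fold above RPE, differences of -3.76 and -2.74 on the log2 scale, which are 7.59 and 6.03 times the SD between probe sets. Among all genes tested, Apoe ranked 22nd of 12831 for brightness in IPE over CBPE and 61st of 12446 for IPE over RPE. RPE was 2.02-fold above CBPE, close to the 2-fold limit and below it after quantile normalization, where the log2 difference was 0.93. As Apoe has this 1 probe set, its values cannot be set beside a second. In a culture measured in bulk, fewer cells making a transcript and less transcript in each cell cannot be told apart.

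Apoe lies in a cluster of apolipoprotein genes, and its neighbours are given beside it. On one side in the RefSeq gene order, Apoc1, a small exchangeable apolipoprotein gene, was above the floor in IPE alone, at 21.4 against 2.4 in CBPE and 3.2 in RPE. As these 2 signals were under the floor, IPE was at least 1.06-fold above CBPE and at least 1.27-fold above RPE. Apoc4 and Apoc2, the next genes on that side, were under the floor on all 3 arrays. On the other side, Tomm40, which encodes the import channel of the mitochondrial outer membrane, was at 272.3, 107 and 120.7. Tomm40 was thus 2.54-fold and 2.26-fold brighter in IPE, the same order of IPE over the others as Apoe with a smaller ratio. The next 3 genes on that side were not alike. Nectin2 was at 377.8, 324.1 and 134.6, with IPE 1.17-fold above CBPE and CBPE 2.41-fold above RPE. Bcam, which encodes a laminin receptor, was at 127.9, 51.2 and 44.8, highest in IPE, and Cblc at 26.4, 46.7 and 5.3, highest in CBPE. Of the 14 further apolipoprotein genes listed, 6 were above the floor on any array, where 13345 of all 18193 named genes were. Saa3, an acute-phase apolipoprotein gene, was at 4550, 9737 and 7522, which put CBPE 2.14-fold above IPE. Apon, at 29.5 in CBPE against 11.5 in IPE, was at least 2.03-fold higher in CBPE. Apoa2, at 29.4, 29.4 and 52.4, stayed within 2-fold.

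Apod encodes apolipoprotein D, a lipocalin that carries arachidonic acid and other small lipids. Its brighter probe set gave 778.7, 878.6 and 1790, and its dimmer one 45.9, 33.1 and 98.6. Both had RPE highest. RPE was 2.299-fold above IPE and 2.04-fold above CBPE by the brighter probe set, and 2.15-fold and 2.98-fold by the dimmer one. CBPE and IPE differed 1.13-fold by the brighter probe set, less than the SD between probe sets, and the dimmer one, quantile normalization and equal medians turned the order (log2 -0.47, -0.0043 and -0.08). With equal medians the log2 difference of RPE over IPE was 0.99, just under the 2-fold limit.

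Clu encodes clusterin, also called apolipoprotein J, a secreted chaperone that binds lipids. Its 4 probe sets gave 4911 to 6464 in IPE, 4589 to 7277 in CBPE and 3519 to 4974 in RPE, and 3 of the 4 carry the suffix for probes that can match several transcripts. All 4 had RPE lowest. The largest ratio among them was 1.46-fold between CBPE and RPE, and none reached 2-fold. CBPE against IPE split by probe set, with 2 placing CBPE higher by 1.34-fold and 1.23-fold and 2 placing IPE higher by 1.03-fold and 1.07-fold, and quantile normalization turned the representing probe set from 0.43 to -0.62 on the log2 scale. Clu thus differed by less than 2-fold between any pair of cultures, while Apoe differed by 13.5-fold on the same arrays.

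**Figure D2:**
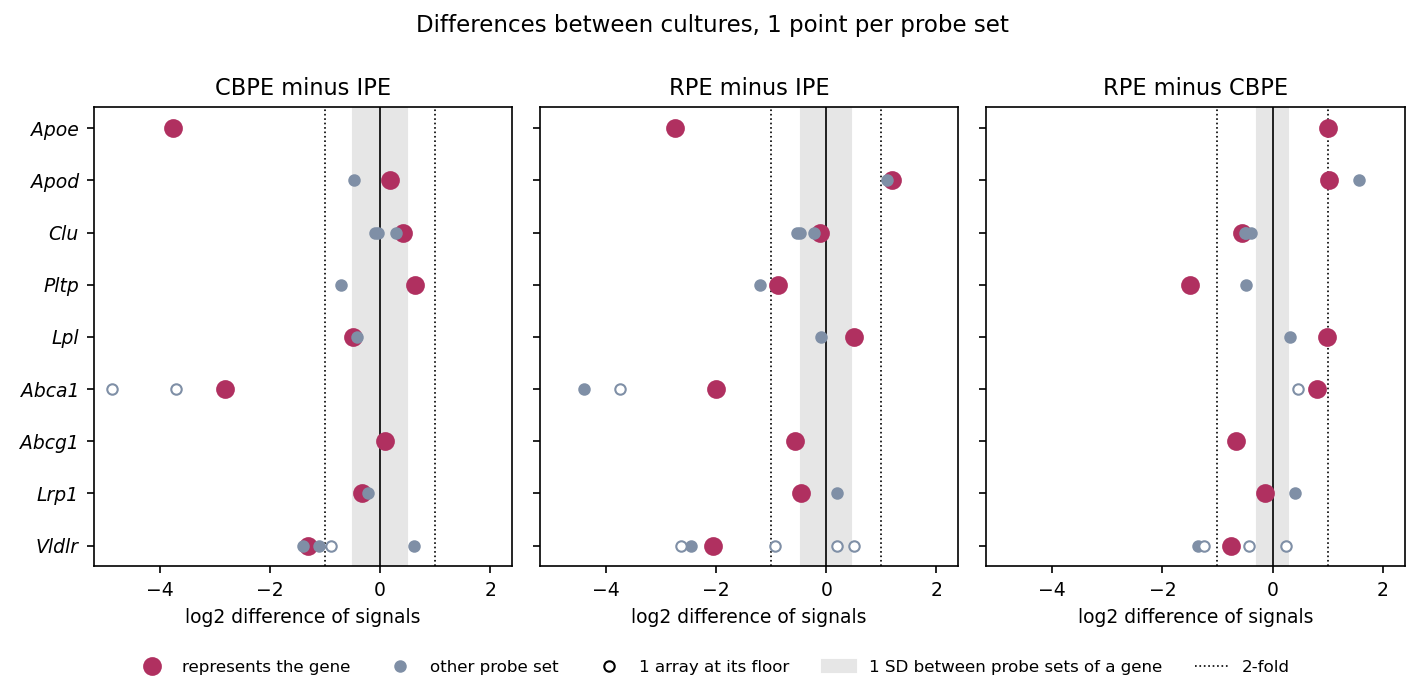
Log2 differences of signals between pairs of cultures for each probe set of the 9 genes, with the representing probe set as a large red point, open points where 1 array was at its floor, a grey band of 1 SD between probe sets of a gene and dotted lines at 2-fold. Apoe, the 3 probe sets of Abca1 and the brighter ones of Vldlr lie left of the 2-fold line in both comparisons with IPE, and Pltp has points on both sides of 0 for CBPE minus IPE.

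Pltp encodes the phospholipid transfer protein, which moves phospholipid between lipoprotein particles. Its brighter probe set gave 991.5, 1533 and 540, and the other 650.6, 397.2 and 283.3. Both had RPE lowest, but they disagreed on which culture was highest. The brighter put CBPE 1.55-fold above IPE and the other put IPE 1.64-fold above CBPE. RPE was 1.84-fold below IPE by the brighter and 2.297-fold by the other, and past the 2-fold limit with equal medians (log2 -1.09), quantile normalization (-1.01) and the mean of both probe sets (-1.04). The 2.84-fold excess of CBPE over RPE by the brighter, ranked 174th of 12860 genes toward CBPE, was 1.40-fold by the other and stood at a log2 difference of -0.49 for RPE minus CBPE without the brighter one, whose suffix marks probes shared between transcripts.

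Lpl encodes lipoprotein lipase, which frees fatty acids from triglyceride-rich lipoproteins. Its brighter probe set gave 152.8, 109 and 217.1, and the dimmer one 37.7, 28.3 and 35.1. Both had CBPE lowest. RPE was 1.99-fold above CBPE by the brighter, just under the limit, and 1.24-fold by the dimmer. RPE over IPE was 1.42-fold by the brighter, while the dimmer had IPE 1.07-fold higher, so the order of these neighbours was not settled. Of the genes that govern the lipase, Lmf1, which encodes a factor needed for its folding, was at 90.1, 148.2 and 148.1 in IPE, CBPE and RPE, and Angptl4, which encodes an inhibitor, at 254.6, 462.3 and 495.4. Angptl4 in IPE was exceeded 1.82-fold by CBPE and 1.95-fold by RPE, under the limit. Gpihbp1, which encodes the anchor of the lipase on capillary endothelium, reached 29.3 in CBPE and the floor in neither other culture, which is at least 2.02-fold over IPE. The endothelial marker list summed to 911.9, 1724 and 383.7, and its part in the Gpihbp1 signal was not tested.

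Further lipase and lipid transfer genes passed the 2-fold limit upward for 2 and downward for 2 of 15 in CBPE relative to IPE, and downward for 2 of 13 in RPE relative to IPE, with none upward. The same 2 genes were lower in both. Those upward in CBPE, Pla2g7 and Gpihbp1, were under the floor in IPE and entered only through CBPE. Of all genes, 11.8% were upward and 12.5% downward in CBPE relative to IPE, and 9.87% and 10.5% in RPE relative to IPE. Mgll, the monoacylglycerol lipase gene, was at 525.4, 145.2 and 159.1, and Pnpla2, which encodes the first lipase of stored triglyceride, at 211.2, 95.2 and 64.7. Mgll was 3.62-fold and 3.30-fold and Pnpla2 2.22-fold and 3.26-fold brighter in IPE. Pla2g7, a secreted phospholipase gene of macrophages, was at 30.3 in CBPE and under the floor in the others, and macrophage markers summed to 396.8, 2463 and 571.2. The median of this list was 0.16 for CBPE minus IPE and 0.12 for RPE minus IPE, and both changed sign with equal medians, the latter under 4 of 6 alternatives. Both medians are the values of Pnpla3, at 15.5, 14.8 and 6.7, which passed the floor in IPE alone. They are above 0 only because its CBPE and RPE signals were raised to floors higher than its IPE signal, so they give no direction.

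Abca1 encodes the transporter that loads cholesterol and phospholipid onto lipid-poor apolipoproteins. Its brightest probe set gave 1235, 176.3 and 310.1, the second 503.8, 1 and 23.9, and the third 226.4, 6.4 and 7.8. IPE was highest by all 3, and the third was above the floor in IPE alone, so that its other signals have no order. By the brightest, IPE was 7.002-fold above CBPE and 3.98-fold above RPE. By the second, IPE was at least 24.9-fold above CBPE and 21.1-fold above RPE, and by the third at least 11.2-fold and at least 13.5-fold. The probe sets thus shared a direction and differed in size by more than the SD between probe sets, with log2 differences from -4.86 to -2.81 for CBPE minus IPE and from -4.40 to -1.99 for RPE minus IPE. Abca1 is a long transcript and the Actb 3′ to 5′ ratio was lowest in IPE, and the part of RNA completeness in the spread between its probe sets was not tested. RPE over CBPE was 1.76-fold by the brightest.

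Abcg1 encodes the transporter that passes cholesterol to mature lipoprotein particles, and no comparison of it reached 2-fold. Its brighter probe set gave 38.6, 41.3 and 26.1, and the other stayed under the floor on all 3 arrays at 9.7, 9.8 and 12.1. CBPE over IPE was 1.07-fold, an order that equal medians turned (log2 -0.16). IPE was 1.48-fold and CBPE 1.58-fold above RPE. With a floor of 100 no value of Abcg1 remained.

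The other lipid-carrying ABC transporters included several that were brightest in IPE. Of 12 tested in CBPE against IPE, 4 were at least 2-fold lower and 1 higher in CBPE, and of 11 tested in RPE against IPE, 3 were lower and none higher in RPE, with medians of -0.46 and -0.67. Beside these, 12.5% of all genes were lower and 11.8% higher in CBPE, and 10.5% lower and 9.87% higher in RPE, each against IPE. Abca9 was at 401.9, 45.7 and 142.4, with IPE 8.79-fold above CBPE and 2.82-fold above RPE. Abca5 was at 180.1, 43.4 and 110.8, with IPE 4.15-fold above CBPE. Abca4, the retinoid flippase gene known from photoreceptors, was at 93.5, 1.5 and 75.4, so it was at the floor in CBPE only. Abca2 was at 73.1, 19.6 and 15.2, and Abca7 at 77.4, 60 and 38.2. Abcg4, a close relative of Abcg1, went the other way, at 22, 54 and 26.2, so CBPE exceeded IPE 2.45-fold. Of the list, 3 of 12 were higher and 1 lower in RPE relative to CBPE, against 3.75% and 4.26% of all genes.

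Vldlr encodes the very low density lipoprotein receptor, which takes up triglyceride-rich particles and binds apolipoprotein E. Its 3 brightest probe sets gave 246.7, 113.9 and 104.3 in IPE, 100.1, 53 and 39.7 in CBPE, and 59.3, 20.7 and 16.4 in RPE. All 3 ranked IPE over CBPE over RPE. By the representing one IPE was 2.46-fold above CBPE and 4.16-fold above RPE, by the second 2.15-fold and 5.50-fold, and by the third 2.63-fold and at least 6.21-fold. The 3 dimmer probe sets were near or under the floors, with 1 of them highest in each culture: 32.1, 22.5 and 20.6 were their highest values. Averaging all 6 gave a log2 difference of -0.64 for CBPE minus IPE, under the limit, and -1.23 for RPE minus IPE. CBPE over RPE was 1.69-fold by the representing probe set and 2.56-fold by the second.

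Lrp1 encodes a large endocytic receptor for apolipoprotein E and many proteases. Its brighter probe set gave 1308, 1046 and 950.9, and the dimmer one 45.4, 38.9 and 51.8. The brighter had IPE highest and the dimmer had RPE highest. The brighter differed 1.25-fold between IPE and CBPE, 1.38-fold between IPE and RPE and 1.10-fold between CBPE and RPE, so none of its pairs reached 2-fold. For RPE minus CBPE the mean of both probe sets turned the sign, from -0.14 to 0.14 on the log2 scale. Lrpap1, which encodes the chaperone of this receptor family, was at 1467, 2119 and 2481, under 2-fold in each comparison.

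Among the other members of the LDL receptor family and their ligands and adaptors, IPE exceeded CBPE at least 2-fold for 6 of 17 and RPE for 7 of 17, with the opposite seen for none. The shares over all genes were 12.5% for IPE over CBPE and 10.5% for IPE over RPE. These counts set dim signals to the floor. Lrp2 (50.9, 9.5 and 6.9), Lsr (28.9, 10.7 and 3.8), Dab1 and Lrp8 passed the floor in IPE alone. They thus entered the list's counts and medians only through IPE. For 1 of the 6, Dab1, at 38.2, 16.9 and 5.9, the bound over the absent bacterial controls of CBPE is at least 1.89-fold, so 5 genes pass 2-fold by that bound. The medians were -0.75 and -0.78, and they stayed below 0 under the 6 alternatives of scaling, floor and probe sets, between -1.0003 and -0.66 for CBPE minus IPE and between -0.995 and -0.47 for RPE minus IPE. Lrp4 was at 209.6, 30.2 and 21, with IPE 6.94-fold above CBPE and 9.98-fold above RPE. Reln, which encodes the secreted ligand reelin of Vldlr and Lrp8, was at 551.2, 118.1 and 228.9, or 4.67-fold and 2.41-fold higher in IPE. Lrp8, the other reelin receptor gene, was above the floor in IPE alone at 19. Sort1, a sorting receptor gene, was at 596, 218.7 and 269.7, and Lrp11 at 627.1, 398.1 and 300.8. Mylip encodes an LXR-induced ligase that marks LDL-type receptors, the Vldlr protein among them, for breakdown, and was at 307.5, 145.1 and 137.9, so it was brightest where Vldlr was. In RPE against CBPE none of 13 reached 2-fold, where 3.75% of all genes were higher and 4.26% lower.

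**Figure D3:**
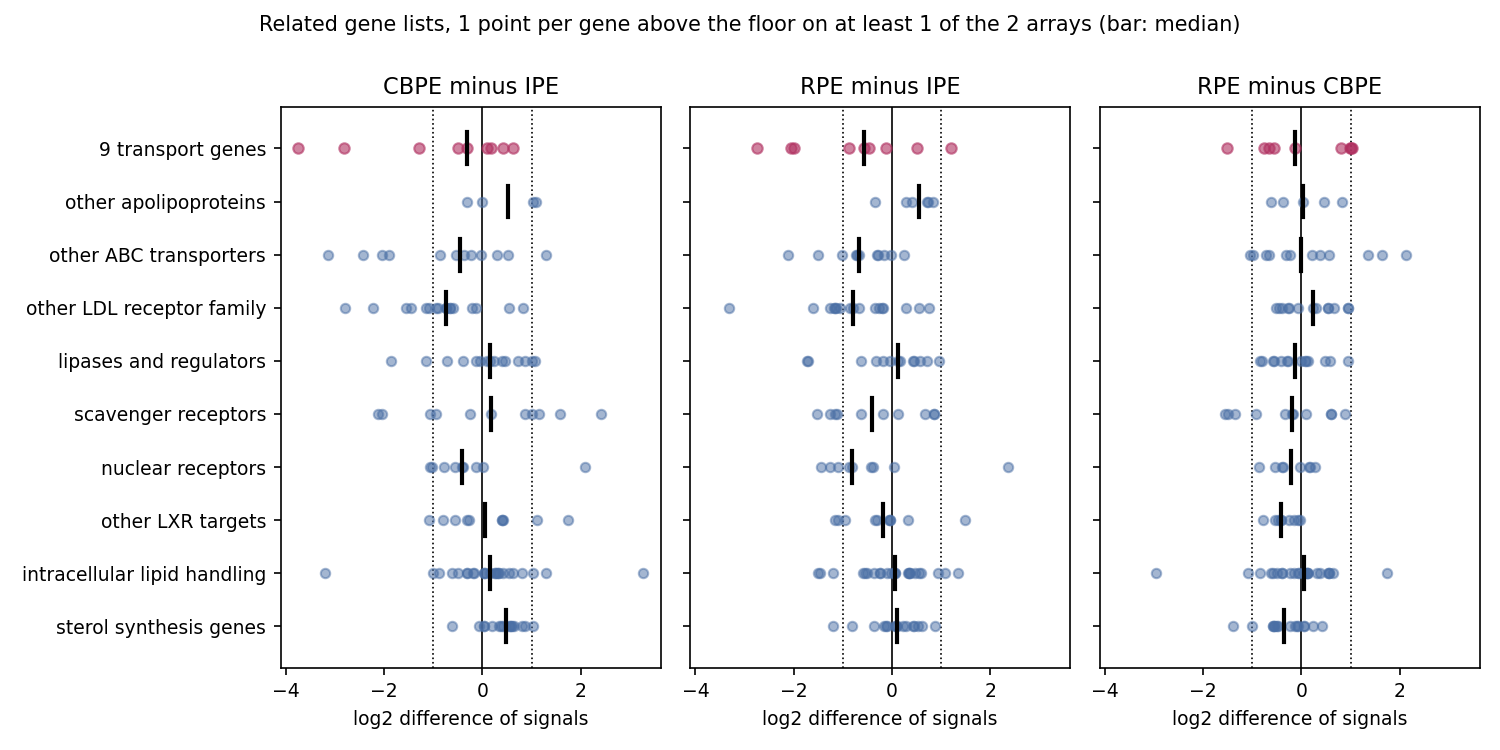
Log2 differences of signals for the 9 genes (red) and for 9 related gene lists (blue), 1 point per gene whose signal passed the floor in either culture compared, with the median of each list as a bar and dotted lines at 2-fold. The list of the other LDL receptor family genes has medians of -0.75 and -0.78 in both comparisons with IPE, and the sterol synthesis genes a median of 0.48 for CBPE minus IPE.

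Of 9 nuclear receptors and coregulators of sterols and fatty acids, IPE exceeded CBPE at least 2-fold for 2 and RPE for 3, and 1 gene was higher in each of them than in IPE. Over all genes the shares were 12.5% for IPE over CBPE and 10.5% for IPE over RPE. For the opposite directions they were 11.8% and 9.87%. The gene higher in both, Pparg, was under the floor in IPE and so entered only through CBPE and RPE. Nr1h3, which encodes LXR alpha, was at 50.9, 34.7 and 23.9, 2.13-fold higher in IPE than in RPE. Rxra, which encodes its partner receptor, was at 196.4, 114.4 and 112.3, under 2-fold. Pparg, which encodes a receptor of fatty acids known from fat cells and macrophages, was at 11.6, 61.4 and 74.3, so CBPE exceeded IPE at least 4.23-fold and RPE exceeded it at least 5.12-fold. Ppard was at 76.2, 57.4 and 31.6, 2.41-fold higher in IPE than in RPE. Ncoa1, a coactivator gene, was at 249.3, 122.7 and 136.4, IPE exceeding CBPE 2.03-fold, and Ppargc1a, another coactivator gene, at 45.8, 21.9 and 16.8.

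The other known LXR target genes differed in both directions. Of 10 tested, CBPE exceeded IPE at least 2-fold for 2 and IPE exceeded CBPE for 1, RPE exceeded IPE for 1 and IPE exceeded RPE for 2, and the medians were 0.06 and -0.19. The sign of the first median turned under 3 of 6 alternatives. Shares over all genes were 11.8%, 12.5%, 9.87% and 10.5% in the order of these counts. Srebf1, a central LXR target that drives fatty acid synthesis, was at 260.9, 347.1 and 250. Scd1, a desaturase gene, was at 443.6, 959.5 and 556.6, 2.16-fold higher in CBPE than in IPE. Smpdl3a, a phosphodiesterase gene, was at 204, 686 and 574.4, with CBPE 3.36-fold and RPE 2.82-fold above IPE. The genes at least 2-fold higher in IPE were Mylip against both other cultures and Nr1h3 against RPE. Pltp, Lpl and Abcg1 of the 9 genes are LXR targets too. None of them was at least 2-fold brighter in IPE than in CBPE or RPE by its representing probe set. By its other probe set, Pltp was 2.297-fold brighter in IPE than in RPE, and it passed 2-fold there under 4 of 6 alternatives.

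The sterol synthesis genes that SREBP2, a transcription factor released when cholesterol is low, switches on were mostly within 2-fold. Of 16, CBPE exceeded IPE at least 2-fold for 1, IPE exceeded RPE for 1 and CBPE exceeded RPE for 2, with medians of 0.48, 0.10 and -0.36, of which the second turned sign under 1 of 6 alternatives. For these 3 counts the shares over all genes were 11.8%, 10.5% and 4.26%. Msmo1 was at 844.7, 1715 and 654.1, 2.03-fold and 2.62-fold higher in CBPE than in the others. Sqle was at 725.1, 835.4 and 414.9, and Stard4, which encodes a carrier of sterol inside the cell, at 144.2, 93.3 and 62.8.

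Among 14 scavenger receptor genes, some were highest in IPE and others in CBPE. Scarb1, which encodes the receptor of high density lipoprotein, was at 310.1, 161.5 and 142.7, 2.17-fold higher in IPE than in RPE. Scarb2, a lysosomal relative, was at 2001, 460.9 and 698.1, and Scara5, a ferritin receptor gene, at 1901, 460.8 and 848.2, both over 2-fold higher in IPE than in both others. Colec12 was at 313, 149.5 and 130.7. Toward CBPE, Stab1 was at 77.2 against 11.5 in IPE and 26.2 in RPE, Cd36 at 43.1 against 12.2 and 11.7, and Msr1 at 32.1 against 2.8 and 13.8. These 3 are known from macrophages or endothelium, markers of both summed highest in CBPE, and the part of such cells was not tested. Cxcl16 was at 98.4, 198.9 and 157.7. In all, CBPE exceeded IPE at least 2-fold for 4 of 11 and IPE exceeded CBPE for 3. IPE exceeded RPE for 4 of 10 and RPE exceeded IPE for none. In that order, the shares over all genes were 11.8%, 12.5%, 10.5% and 9.87%. Of the genes counted toward CBPE, Stab1, Cd36 and Msr1 were under the floor in IPE and entered only through CBPE. Megf10 entered both comparisons with IPE only through IPE, and Stab1 and Stab2 entered that with RPE only through RPE.

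Of the genes that handle cholesterol and fatty acids inside the cell, 3 of 25 passed 2-fold upward and 2 downward in CBPE relative to IPE. In RPE relative to IPE, 2 of 24 were upward and 3 downward. These counts lie near the shares over all genes, which were 11.8%, 12.5%, 9.87% and 10.5% in the same order. The medians were 0.15 and 0.06, and both changed sign with equal medians. Npc2 and Npc1, which release cholesterol from lysosomes, were at 3294, 3956 and 4280 and at 62.6, 79 and 86.9 in IPE, CBPE and RPE, within 2-fold. Osbpl8, which encodes a lipid exchanger at membrane contacts, was at 218.4, 23.8 and 79.1, 9.18-fold and 2.76-fold higher in IPE. Fabp5, a fatty acid binding protein gene, was at 407.1, 828.4 and 859.6, with CBPE 2.03-fold and RPE 2.11-fold above IPE. Fabp4, its relative of fat cells, capillaries and macrophages, was at 4.8, 140.7 and 18.1. Fabp3 was at 35.9, 62.6 and 91.2, and Stard3 at 108.6, 53.9 and 84.3.

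Apoe is known as a product of glia and macrophages, and Lpl of fat and muscle cells, so markers of these cells were set beside the 9 genes. Macrophage and leukocyte markers were highest in CBPE, where Apoe was lowest: 5, 10 and 8 of 15 were above the floor in the order IPE, CBPE, RPE, and Ptprc, C1qa, C1qc, Itgam and Mrc1 were under it on all 3 arrays. Of the glial and Müller cell markers, 8 of 11 measured were above the floor in IPE and 6 in each other culture. Glul was at 2558, 309.6 and 743.2, and Dkk3 at 1145, 224.5 and 426.4, both in the order of Apoe. Rlbp1, which retinal pigment epithelium also makes, was at 84, 5.3 and 17.3, highest in IPE with no order between the others. Other glial markers had other orders. Slc1a3 was highest in RPE, at 25.7, 14.4 and 47.2. Vim (6643, 12214 and 8515), Fabp7 (8.5, 35.6 and 13.6) and Aqp4 (13.8, 20.8 and 1.3) were highest in CBPE, and S100b differed little, at 35.9, 27.4 and 30.6. Gfap was at 17.1 in IPE and under the floor in the others, Kcnj10 was under it on all 3 arrays, and Sox10 was above it in IPE alone, at 25.7. The list summed to 10562, 12884 and 9814, most of it from Vim. Summed pigment epithelium markers had the order of Apoe as well, at 6143, 1258 and 2071. IPE was at least 2-fold above CBPE for 9 of 14, against 12.5% of all genes, and below it for 3, against 11.8%. For RPE against CBPE, 4 of 14 were higher and 2 lower, against 3.75% and 4.26% of all genes, with a median of 0.18. Krt8 (17.4, 95.3 and 26.2) and Krt18 (144.1, 422.4 and 218.6) were highest in CBPE. The part of pigment epithelium, glial and macrophage genes in the Apoe, Abca1 and Vldlr values was not tested.

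Of 8 fat cell markers measured, 4 were above the floor on any array, where 13345 of all 18193 named genes were. Adipoq, Cidec, Lep and Retn were under the floor on all 3 arrays. Skeletal muscle markers were above the floor for 3, 8 and 11 of 14, summing to 205.7, 1643 and 1708, and Myod1, Myog and Ckm were under it on all arrays. Most of the CBPE muscle sum came from Myh2, at 32.8, 1363 and 808.8. Of 11 muscle markers compared between RPE and CBPE, 4 were at least 2-fold higher in RPE, against 3.75% of all genes. None was 2-fold lower, and their median log2 difference was 0.69. Tnnc2 (4.2 in CBPE and 89.8 in RPE), which is among the 4, Tnnt3 and Myh4 were under the floor in CBPE. They thus entered the count and median only through RPE, and the median is the value of Tnnt3. Lpl was lowest in CBPE by both probe sets, and the part of muscle transcripts was not tested. Fibroblast and mesenchymal markers were above the floor for all 14 on every array, summing to 36306, 68651 and 54244.

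**Figure D4:**
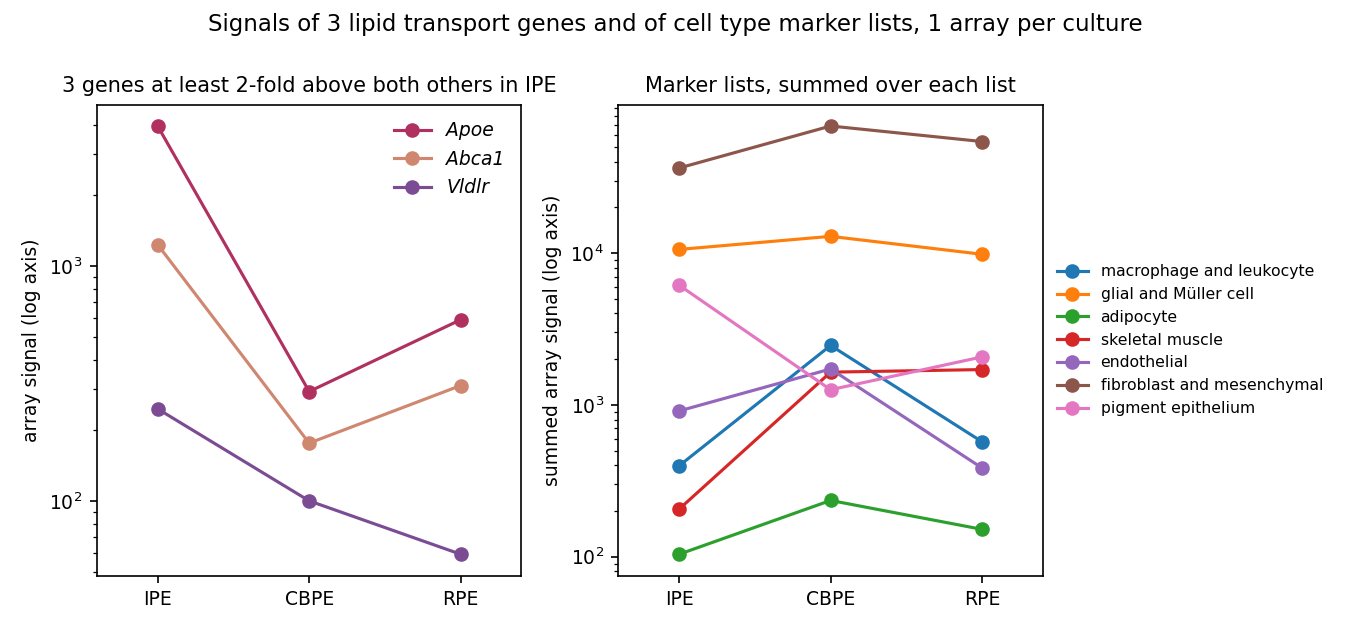
Left, array signals of Apoe, Abca1 and Vldlr by their representing probe sets; right, summed signals of 7 cell type marker lists, both on log axes with 1 array per culture. Apoe and Abca1 are lowest in CBPE, as is the sum of the pigment epithelium list (6143, 1258 and 2071 in IPE, CBPE and RPE). The sum of the macrophage list is highest there, at 2463.

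The genes whose signals over the 3 arrays lay closest to those of Apoe, by Euclidean distance of centred log2 signals among 5620 genes brighter than 100 on all arrays, were Dipk2a, Nr2f1 and Nnat. Dipk2a was at 873.6, 100.4 and 155, at a distance of 0.45. Nr2f1, a transcription factor gene of the optic vesicle, was at 1894, 142.4 and 182.7, at 0.53, and Nnat at 927.3, 123 and 146.3, at 0.66. Closest to Lpl among 13345 genes above a floor were Efna4 (67.4, 47.3 and 95.4), Sox9 (40.5, 29.1 and 58.8) and Amigo2 (24.8, 1.4 and 35.4), all with the order RPE over IPE over CBPE. With 3 arrays, many genes share any given order, and this likeness is a description only.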

How the data were processed

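Gene expression was measured in 3 primary cultures, 1 biotin-labelled array each. Total RNA was copied with an oligo-dT primer and amplified by in vitro transcription, per the labels. The authors deposited 1 intensity per probe set for each array, on a linear scale. No software, probe summary or build was given in the sources used. With 2% trimmed at each end, the mean was 100.001 on every array, so a common scaling had been applied, and it was kept. Precision is limited by the number of arrays.

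Symbols came from a platform annotation of 2016, brought up to date by gene identifier with the RefSeq table (GRCm38.p6). The annotation listed 35890 probe sets, of which 34958 had 1 gene and 932 several, and 9160 non-control probe sets were unnamed here. Each array's floor was its median (50th percentile) without control probe sets. Signals under it were raised to it before log2 was taken. The probe set of highest mean log2 signal stood for its gene, which was counted as different at 2-fold or more with at least 1 signal above the floor. A gene under the floor on 1 array of a pair thus entered a list's counts and medians only through the other array. Where the dimmer signal was at or under its floor, or under the brightest absent bacterial control on that array, the fold is over the higher of both and written as at least that size, so a bound can be under a counted difference.

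The 9 genes, the 9 related lists and the 7 marker lists were chosen with earlier results of these data known. Named genes are the 9 genes, up to 4 genes per list and comparison past 2-fold by mean signal, 12 fixed genes where the annotation named a probe set, and the 3 genes nearest Apoe and Lpl. Neighbours of Apoe, markers and a few further genes were named after their values were seen. No test was run. The counting rule was run on simulated data with large known differences among bright genes, which says nothing of calls near the 2-fold limit or the floor. Alternatives were quantile normalization, equal medians, floors at the 60th percentile and at 100, the mean of all probe sets, removal of probe sets ending in _x_at or _s_at, and limits of 1.5-fold and 3-fold. Python 3.11.15, numpy 2.4.6, pandas 2.3.3 and matplotlib 3.10.9 were used.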

Additional observations from a re-analysis of the deposited data

How the results depend on the processing

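The 3 genes at least 2-fold brighter in IPE than in CBPE and in RPE numbered 2 to 3 and 3 to 4 over the 8 alternatives, Pltp being the fourth. The mean of all probe sets, for example, took Vldlr to -0.64 for CBPE minus IPE. Of the 10 differences of at least 2-fold among the 27 computed, 6 stayed past the limit under every alternative run for them: Apoe and Abca1 in both comparisons with IPE, Vldlr in RPE against IPE and Apod in RPE against CBPE. The counts with 0 to 2 genes moved most. With a limit of 1.5-fold, 1 gene was higher in CBPE than in IPE, 4 were higher in RPE than in CBPE and 3 in CBPE than in RPE, and with a limit of 3-fold the last pair of counts was 0 and 0, as was that for RPE over IPE. Equal medians left 0 genes higher in RPE than in IPE, quantile normalization 1 higher in RPE than in CBPE, and the mean of all probe sets 0 higher in CBPE than in RPE. Without probe sets ending in _x_at or _s_at, that last count was 1, but the gene was Vldlr (log2 -1.36 for RPE minus CBPE) in place of Pltp (-0.49). Abcg1 gave no value with a floor of 100. A sign changed under some alternative for 5 of the 27 differences, none of them at least 2-fold. With 1 array per culture the spread between cultures cannot be measured.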
